A study of Mus musculus with 4 samples.

Results

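Calcium cycling in the heart muscle cell was described at 10 genes: Ryr2, Casq2, Atp2a2, Pln, Sln, Cacna1c, Slc8a1, Jph1, Jph2 and Camk2d. They were chosen by name for roles in calcium release, uptake, entry, exchange and membrane architecture. The rule of choice uses no peak value, although earlier results of these data were known when the set was drawn up. All 10 were found among the 21900 protein-coding gene models of the mouse genome build mm10. In the study, chromatin bound to the transcription factor ATF4 was recovered on streptavidin beads from crosslinked, sonicated heart ventricle of mice aged 4 weeks. It was represented by 2 ATF4 pull-down samples and 2 samples of input chromatin, whose values are not analysed here. The antibody field of the pull-down labels reads AAV and that of the input labels reads none. Strain and genotype were not given in the labels, AAV was not explained there, and nothing in them said that samples came from separate animals. Whether the ATF4 recovered was the heart's own is therefore not given.

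Contraction of a heart muscle cell starts when calcium enters through the L-type channel, whose pore is Cacna1c, and opens the ryanodine receptor Ryr2 of the sarcoplasmic reticulum. Casq2 buffers calcium inside that store, the pump Atp2a2 refills it under restraint by the small proteins Pln and Sln, and the exchanger Slc8a1 removes calcium from the cell. The junctophilins Jph1 and Jph2 hold the cell membrane and the store together at the dyad, and the kinase Camk2d phosphorylates Ryr2 and Pln. ATF4 is a leucine zipper factor of the integrated stress response, and it is known for pairing with C/EBP proteins at composite sites that join a C/EBP and an ATF element.

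Each pull-down sample had its own list of peaks, with 78746 in replicate 1 and 88812 in replicate 2, and a series-wide list held 41639. The value of a peak is its fold, the height at the summit over a constant background of the sample. It is not a ratio to input, and a peak does not by itself show that ATF4 was bound there. Sequencing depth is unknown, and no test over samples was possible, so spreads are SDs over the 2 replicates, which may be technical. The replicate lists lack the distal ends of several chromosomes, with 942 series-wide peaks beyond their last peak, and 0 of the 10 genes lie there. Of the marker lists, 6 of 6 cardiomyocyte genes had an end peak, meaning a series-wide peak no farther than 1 kb from either end or an annotated start. The counts were 1 of 4 endothelial, 1 of 4 fibroblast, 0 of 4 immune, 2 of 3 smooth muscle and 0 of 3 neuronal genes. Of all protein-coding models, 35.9% had one. In replicates 1 and 2 the cardiomyocyte counts were 6 and 6 of 6, against 10951 and 11382 of the 21900 models. Endothelial genes had 3 and 3 of 4, fibroblast genes 2 and 4 of 4, and immune genes 1 and 0 of 4. Smooth muscle genes had 2 and 2 of 3, and neuronal genes 1 and 1 of 3. The contrast with endothelial and fibroblast genes was thus weaker in the replicate lists. These are peaks, not expression levels.

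Promoter sequences are shown for the starts on which the comparison of promoter with intragenic peaks turns. Of the 10 genes, 7 matched an entry of the RefSeq promoter table for GRCm38.p6, the assembly of mm10: Ryr2, Casq2, Pln, Cacna1c, Slc8a1, Jph2 and Camk2d. Each sequence runs 5′ to 3′ on the gene's strand, with 250 bases before the annotated start and 50 after it. Capitals mark letters that matched a searched motif on either strand. Pln and Slc8a1 are shown as the starts that held higher peaks than the gene body in both replicates, Ryr2 as a start far below its gene body, and Cacna1c as a gene with several starts of which only the outermost of those listed lay under a peak.
Pln, chr10:53337436-53337735, plus strand: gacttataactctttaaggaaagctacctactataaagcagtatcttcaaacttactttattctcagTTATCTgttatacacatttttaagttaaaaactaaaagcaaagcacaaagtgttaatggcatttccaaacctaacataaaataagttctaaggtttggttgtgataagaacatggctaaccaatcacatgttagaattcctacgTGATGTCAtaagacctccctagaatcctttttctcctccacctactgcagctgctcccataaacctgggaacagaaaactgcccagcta
Slc8a1, chr17:81738338-81738637, minus strand: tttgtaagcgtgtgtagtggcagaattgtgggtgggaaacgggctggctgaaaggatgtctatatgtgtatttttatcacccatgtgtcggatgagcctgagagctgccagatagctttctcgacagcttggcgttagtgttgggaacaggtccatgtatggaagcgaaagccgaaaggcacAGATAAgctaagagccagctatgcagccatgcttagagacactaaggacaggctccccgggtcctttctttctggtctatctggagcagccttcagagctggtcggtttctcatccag
Cacna1c outer start, chr6:119196360-119196659, minus strand: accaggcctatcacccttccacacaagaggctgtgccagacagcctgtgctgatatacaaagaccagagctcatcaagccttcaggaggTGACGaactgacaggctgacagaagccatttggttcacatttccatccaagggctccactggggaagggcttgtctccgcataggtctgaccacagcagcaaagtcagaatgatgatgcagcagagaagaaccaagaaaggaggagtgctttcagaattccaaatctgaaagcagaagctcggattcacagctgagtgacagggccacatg
Cacna1c middle start, chr6:119108446-119108745, minus strand: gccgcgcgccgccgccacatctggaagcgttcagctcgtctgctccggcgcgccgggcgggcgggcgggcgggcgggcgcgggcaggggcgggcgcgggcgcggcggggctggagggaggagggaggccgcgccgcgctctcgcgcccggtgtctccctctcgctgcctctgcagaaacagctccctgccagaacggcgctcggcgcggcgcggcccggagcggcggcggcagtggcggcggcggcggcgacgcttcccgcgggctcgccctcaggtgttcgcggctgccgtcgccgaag
Cacna1c inner start, chr6:118757925-118758224, minus strand: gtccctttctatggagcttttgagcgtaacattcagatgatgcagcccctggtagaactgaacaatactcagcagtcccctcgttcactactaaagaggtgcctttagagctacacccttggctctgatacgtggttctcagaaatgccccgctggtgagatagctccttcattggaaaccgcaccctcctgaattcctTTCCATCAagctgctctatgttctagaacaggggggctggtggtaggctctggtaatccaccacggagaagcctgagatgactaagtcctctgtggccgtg
Ryr2, chr13:12106896-12107195, minus strand: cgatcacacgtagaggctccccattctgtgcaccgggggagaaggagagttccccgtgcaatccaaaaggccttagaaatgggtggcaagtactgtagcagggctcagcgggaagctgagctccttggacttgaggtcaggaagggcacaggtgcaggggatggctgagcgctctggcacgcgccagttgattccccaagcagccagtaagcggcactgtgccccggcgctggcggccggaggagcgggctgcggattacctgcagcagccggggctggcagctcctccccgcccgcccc

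The motifs searched were TGATGNAA, the composite C/EBP-ATF site, held by 3.97% of 32851 promoters in the table, and TGACGTCA, the cyclic AMP response element, held by 1.79%. Its 5-letter part TGACG, which lies within that element, was held by 20.8%. Of cardiac motifs, the palindromic core of MEF2 sites was held by 3.69%, CATTCC, read by TEAD factors, by 14.7%, and AGATAA, read by GATA factors, by 11.2%. Both strands were read for each. The Pln promoter held AGATAA on its reverse strand, from 183 to 178 bases upstream of the start. It also held TGATGTCA from 39 to 32 bases upstream, a string searched only after this promoter had been read and held by 3.62% of promoters. Slc8a1 held AGATAA from 68 to 63 bases upstream. The outer Cacna1c promoter held TGACG from 161 to 157 bases upstream, and the inner one held the composite site from 51 to 44 bases upstream. The letters searched were not in the windows of Ryr2, Casq2, Jph2, Camk2d or the middle Cacna1c start.

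Peaks stood in and around each of these genes. With 20 kb added on both sides, 10 of 10 gene models held a series-wide peak, where 68.0% of all protein-coding models did. The same 10 of 10 held for replicate 1, against 77.9% of all models, and for replicate 2, against 79.1%. Together they held 146 series-wide peaks, of which 115 lay inside a gene more than 1 kb from its ends and annotated starts, 9 lay at those ends or starts, and 22 lay in the flanks. Intragenic peaks thus made up 78.8%. Over all protein-coding models, most of them shorter than 100 kb, 19167 of 49124 peak placements were intragenic, with a peak counted for each model it falls in. At least 1 of them was found in 8 of 10 genes in the series-wide list (27.8% of all models), in 10 in replicate 1 (37.5%) and in 9 in replicate 2 (39.8%). The 5 genes of at least 100 kb all held one in each list, as did 79.0%, 89.3% and 90.1% of models of that length. The gene models run from 3.6 kb at Sln to 610.1 kb at Cacna1c, and a longer model has more room for a peak. Exons and introns were not told apart.

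The series-wide peaks of these genes could be followed in both pull-down samples. All 146 had a partner in each replicate list by an overlap of at least 1 bp, as did 40643 of all 41639 series-wide peaks, so the count is not particular to these genes. The series-wide list is named as merged, and many of its peaks are identical to replicate peaks (17420 in replicate 1 and 21053 in replicate 2). A partner in each list was therefore largely built in and is not independent support. In addition, the series-wide fold was the higher of the replicate folds at all 146. Replicate folds were read from series-wide folds at identical peaks, so this match is not independent either. Summits of the partners lay a median of 20.5 bp apart, against 21 bp over all series-wide peaks. The higher replicate fold exceeded the lower by a median factor of 1.16 in these genes and 1.18 over all series-wide peaks. Each replicate list held 336 peaks here, and 241 (71.7%) of replicate 1 and 243 (72.3%) of replicate 2 overlapped a peak of the other sample. Over all peaks of the lists the shares were 81.2% and 72.1%. Peaks without a partner reached at most 12.0-fold in replicate 1 and 10.6-fold in replicate 2.

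High folds were common at the set. The strongest peak in the gene with 20 kb reached 30-fold in 8 of 10 genes, against 14.1% of all models. In replicate 1 the count was 7 of 10, against 11.6% of all models, and in replicate 2 it was 8 of 10, against 12.0%. Of the 5 genes of at least 100 kb, 4 reached it in the series-wide list, 3 in replicate 1 and 4 in replicate 2. Over the 2429 models of that length the shares were 30.8%, 25.4% and 27.3%. The median strongest series-wide fold was 42.8 over the 10 genes and 18.2 over all genes with a peak. Ryr2 and Sln were the genes below 30-fold, with 29.5-fold and 16.4-fold. Of the 146 peaks, 19 (13%) reached 30-fold, against 8.66% of all series-wide peaks.

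An end peak, as defined above for the marker lists, was present in the series-wide list at 8 of 10 genes, against 35.9% of all protein-coding models. Sln and Jph1 had none there. Replicate 1 had such a peak at 9 of 10 genes, all but Sln, against 50% of models, and replicate 2 at 10 of 10, against 52.0%. Strand was known for 7 genes. Of these, 6 had a series-wide peak at the start, against 35.4% of the 17492 models with strand, and 7 had one in each replicate, against 48.8% and 50.6%. The exception in the series-wide list was Pln, whose end peak there lies at the 3′ end. With the series-wide list limited to its top 20% by fold, 4 of 10 genes kept an end peak (Slc8a1, Jph2, Cacna1c and Camk2d), against 5.62% of models. Jph2 is counted by the midpoint of a wide peak, here and in the comparison below. The replicate summits of that peak lie 1.37 and 1.40 kb upstream of the 5′ model end, outside the window of 1 kb.

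Which place was the stronger depended on the window. Among 7 genes with both kinds of series-wide peak, the end or start peak was the higher in 2, Jph2 and Slc8a1, and with a window of 5 kb in place of 1 kb it was the higher in 4 of 7. A wider window places more peaks at an end, and the share of all models at 5 kb was not computed. At 1 kb the end or start peak was the higher in 31.3% of all models with both kinds. In replicate 1 the count was 2 of 9 (Pln and Slc8a1), against 36.7%, and in replicate 2 it was 3 of 9 (Pln, Jph2 and Slc8a1), against 37.8%. Among the genes of at least 100 kb, Slc8a1 alone had the higher end peak, 1 of 4 in the series-wide list and 1 of 5 in each replicate. For models of that length the shares were 15.9%, 15.6% and 14.4%. The share among these genes is therefore close to the background, and it is given as a description.

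**Figure D1:**
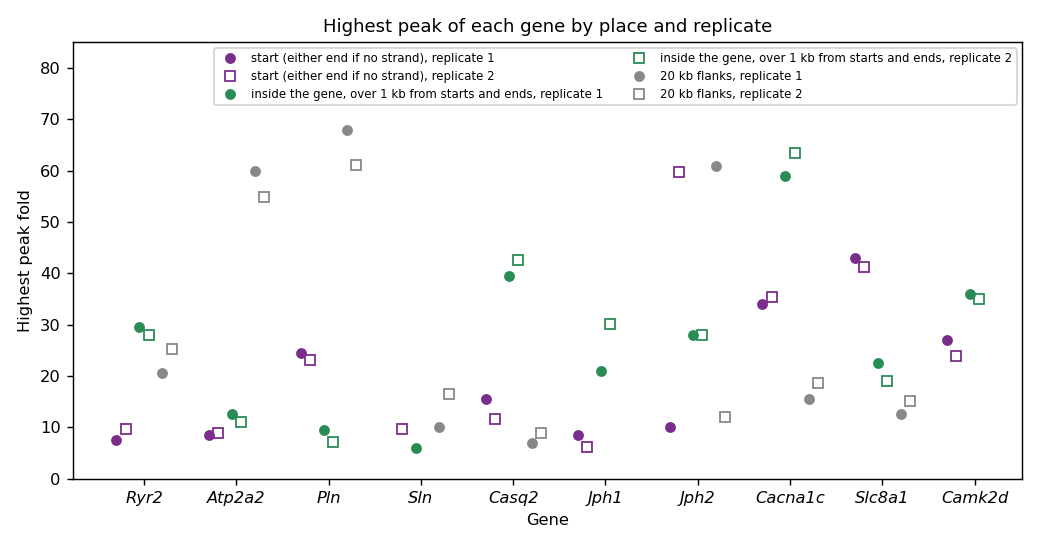
Highest peak fold (vertical axis) of each gene (horizontal axis) by place, with filled circles for replicate 1 and open squares for replicate 2; for Atp2a2, Sln and Jph1, whose strand is not given, either end is shown in place of the start. Intragenic peaks stand above start peaks at Ryr2, Casq2, Cacna1c and Camk2d and below them at Slc8a1 and Pln in both replicates, and the highest peaks of Atp2a2 and Pln lie in the flanks; at Jph2 the same peak of about 60-fold is placed upstream in replicate 1 and at the start in replicate 2.

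Calcium release was represented by Ryr2 and Casq2. Ryr2 (chromosome 13, 11553099 to 12106945, minus strand) had a start peak of 7.50-fold in replicate 1 and 9.75-fold in replicate 2 (8.63 ± 1.59, SD, n = 2), with summits 55 and 63 bases upstream of the start. Its highest intragenic peak lay 2.51 kb inside the gene and reached 29.5-fold and 27.9-fold (28.7 ± 1.11, SD, n = 2). Both replicates had the intragenic peak far above the start peak, and the SDs are small beside the gap. A further peak 8.09 kb upstream of the start had 20.5-fold and 25.3-fold (22.9 ± 3.37, SD, n = 2). The promoter printed above is rich in G and C (65.3%), and all of its 300 bases lay under the replicate 1 peak.

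Peaks of Ryr2 crowded toward its 5′ end. Of 16 series-wide intragenic peaks, 13 lay in the 25% of the gene nearest the start, 0 in the next 25%, 1 in the following 25% and 2 in the 25% at the 3′ end. Over 1866 models of at least 100 kb with strand, the 25% nearest the start held 24.8% of the intragenic peaks. In replicate 1 the share of peaks in that stretch was 56.1% (32 of 57) and in replicate 2 it was 79.5% (31 of 39), against 25.3% and 25.4% over those models. A stretch of 232.5 kb, from 119.2 kb to 351.7 kb into the gene, held no series-wide peak midpoint. The first 119.2 kb also held the higher peaks, among them those at 69.8 kb (22.4 ± 2.74-fold, SD, n = 2) and 76.2 kb (22.5 ± 2.08-fold, SD, n = 2). Beyond 130 kb the highest peak had 15.0-fold in replicate 1, and the median there was 6.5-fold in replicate 1 and 6.21-fold in replicate 2. Of 62 replicate 1 peaks in Ryr2 with 20 kb, 32 had a partner among the 46 of replicate 2.

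Casq2 (chromosome 3, 102086415 to 102146514, plus strand) showed the same order of places. Its start peak had 15.5-fold and 11.5-fold (13.5 ± 2.81, SD, n = 2), with summits 451 and 514 bases upstream. An intragenic peak 13.3 kb into the gene had 39.5-fold and 42.6-fold (41.0 ± 2.16, SD, n = 2). The intragenic values of both replicates lay above both start values. Another peak stood 57.4 kb into the gene, near its 3′ end, with 19.0-fold and 15.5-fold (17.3 ± 2.47, SD, n = 2). Vangl1, the nearest protein-coding neighbour, begins 7.1 kb beyond the gene and held none of the Casq2 peaks.

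Uptake into the store was represented by Atp2a2 and its inhibitors Pln and Sln. Pln (chromosome 10, 53337686 to 53345999, plus strand), the smallest of these genes but for Sln, had the highest peak of the whole set. It lay 12.8 kb upstream of the start, with 68.0-fold in replicate 1 and 61.2-fold in replicate 2 (64.6 ± 4.83, SD, n = 2), and was rank 40 of the 41639 series-wide peaks. It was the farthest out of 4 series-wide peaks in the 20 kb upstream, and none of the 4 was under 41-fold by the series-wide value. The others were at 8.16 kb upstream with 31.5-fold and 41.2-fold (36.4 ± 6.87, SD, n = 2), and at 4.76 kb upstream with 60.5-fold and 55.4-fold (58.0 ± 3.60, SD, n = 2).

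The last of the 4 Pln peaks was 2829 bp wide in the series-wide list and reached over the start. Each replicate list split it in 2. The higher part had its summit about 2.2 kb upstream of the start, with 47.0-fold and 42.6-fold (44.8 ± 3.15, SD, n = 2). The part at the start had 24.5-fold and 23.0-fold (23.8 ± 1.03, SD, n = 2), with summits 71 and 79 bases upstream, between the AGATAA and TGATGTCA strings printed above. Inside the gene the highest replicate peaks had 9.50-fold and 7.09-fold (8.30 ± 1.70, SD, n = 2). At Pln the start was thus above the gene body in both replicates, and the upstream peaks were above the start. Pln lies wholly within the gene model of Cep85l, a centrosomal protein gene, and all 7 of its series-wide peaks lie within that model too, so these peaks cannot be assigned to 1 of the 2 genes by place.

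Atp2a2 (chromosome 5, 122453513 to 122502225, strand not given here) had no high peak inside the gene. Its highest intragenic peak had 12.5-fold and 11.1-fold (11.8 ± 1.00, SD, n = 2), and the peak at the end with the upper coordinate had 8.50-fold and 8.87-fold (8.68 ± 0.258, SD, n = 2). The high peaks stood beyond that upper end. One lay 8.08 kb beyond it, with 46.0-fold and 39.5-fold (42.7 ± 4.63, SD, n = 2), and another 18.3 kb beyond it, with 60.0-fold and 55-fold (57.5 ± 3.56, SD, n = 2). Both replicates placed these at several times the level of any peak in the gene. The model of Anapc7, a subunit of the anaphase-promoting complex, ends 8.6 kb below the lower end of Atp2a2 and held 1 of its 11 peaks, and no protein-coding model reached the 20 kb above the upper end.

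Low peaks tiled the body of Atp2a2 in the replicate lists. Replicate 1 had 25 intragenic peaks and replicate 2 had 23, where the series-wide list had 4. That is 51.3 and 47.2 peaks per 100 kb, the 2nd and 4th highest values among 6007 models of at least 40 kb, whose medians were 2.38 and 2.85. Genes of like density in both lists, named after their values were seen, were Fhl2 (61.1 and 51.8 peaks per 100 kb), Sfi1 (39.2 and 49.0) and C130026I21Rik (38.5 and 45.7). Peaks covered 22.2% of the bases of Atp2a2 in replicate 1 and 18.8% in replicate 2, against medians of 1.01% and 1.14% over those models. The median fold of the intragenic peaks was only 6.0 in replicate 1 and 6.21 in replicate 2, near the lowest values of the lists, 5.50 and 5.32. Pln showed a like tiling, with 47.2% and 33.6% of its bases under replicate peaks and 1.97% under series-wide peaks. Coverage and this order of densities were examined after the data had been seen.

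Sln (chromosome 9, 53850251 to 53853849, strand not given here) was the exception among the uptake genes. Its 1 series-wide peak lay 4.28 kb beyond the end with the upper coordinate, with 10-fold and 16.4-fold (13.2 ± 4.53, SD, n = 2). Replicate 2 alone had a peak of 9.75-fold within 1 kb of that end, and replicate 1 alone had one of 6.0-fold inside the gene. No peak above 20-fold was found in either replicate within 20 kb of Sln. The gene is known for expression in atria rather than ventricles, and whether that bears on its peaks was not tested.

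**Figure D2:**
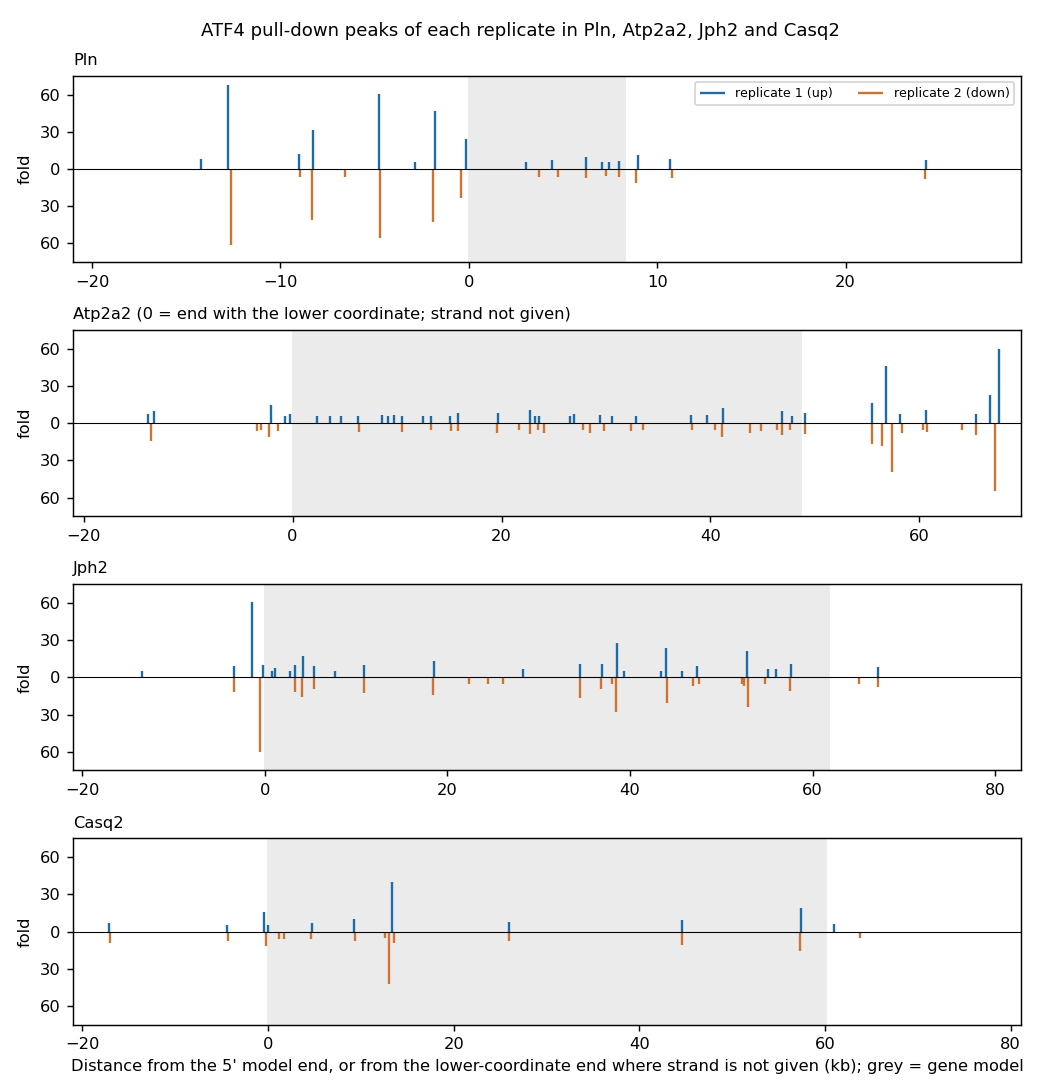
Peaks of replicate 1 (bars up) and replicate 2 (bars down) along Pln, Atp2a2, Jph2 and Casq2, placed by peak midpoint; the horizontal axis gives distance in kb from the 5′ end of the model, or from the lower-coordinate end for Atp2a2, the vertical axis gives fold, and grey marks the gene model. The highest bars stand upstream of Pln (68.0 and 61.2), beyond the upper end of Atp2a2 (60.0 and 55), just upstream of Jph2 (61.0 and 59.8) and inside Casq2 (39.5 and 42.6), while the body of Atp2a2 is filled with low bars.

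Calcium entry and exchange were represented by Cacna1c and Slc8a1. Cacna1c (chromosome 6, 118587240 to 119197384, minus strand) had a peak at its outer start of 34.0-fold and 35.5-fold (34.7 ± 1.03, SD, n = 2). The summits lay 248 and 240 bases upstream of that start, before the TGACG letters printed above. An intragenic peak 57.7 kb from the 5′ end had 59.0-fold and 63.4-fold (61.2 ± 3.10, SD, n = 2), and was rank 89 of the series-wide peaks. A second, 16.5 kb from the 5′ end, had 58.0-fold and 50.5-fold (54.3 ± 5.28, SD, n = 2). Both intragenic peaks were above the start peak in each replicate. The second lies where the model of Dcp1b, an mRNA decapping gene, overlaps Cacna1c by 22132 bp. The whole Dcp1b model holds 5 of the 43 Cacna1c peaks, the outer start peak and the flanking peak upstream of Cacna1c among them.

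The other annotated starts of Cacna1c lay under no peak. The middle start, 88.9 kb from the 5′ end, has a promoter of 81.3% G and C with 57 CpG in 300 bases, and no base of it was covered in any of the 3 lists. The nearest replicate summits were 807 bases downstream in replicate 1 (5.50-fold) and 887 bases upstream in replicate 2 (7.09-fold). The inner start, 439.4 kb from the 5′ end, is the only one of the listed promoters that held the composite C/EBP-ATF letters, and it too had no base under a peak. Its nearest summit in replicate 1 lay 774 bases upstream, with 6.0-fold. The outer promoter, without those letters, lay under a peak. This describes starts of a single gene, and whether the letters go with peaks was not tested.

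Slc8a1 (chromosome 17, 81373105 to 81738387, minus strand) had the opposite order of places. Its start peak had 43.0-fold and 41.2-fold (42.1 ± 1.26, SD, n = 2), with summits 88 and 82 bases upstream, next to the AGATAA letters. The highest intragenic peak lay 335.7 kb from the start and had 22.5-fold and 19.1-fold (20.8 ± 2.43, SD, n = 2). Start values stood above intragenic values in both replicates, by 1.91 and 2.16 times. The 18 series-wide intragenic peaks had series-wide folds from 9.31 to 22.5 and left a gap of 95.8 kb between 73.4 kb and 169.2 kb from the start.

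The dyad was represented by the junctophilins. Jph2 (chromosome 2, 163336242 to 163398049, minus strand), the junctophilin known for heart muscle, had a series-wide peak of 2944 bp across its start with 61.0-fold. In replicate 1 the summit lay 1.37 kb upstream of the 5′ model end with 61.0-fold, and a separate peak nearer the start had 10-fold. In replicate 2 the region was 1 peak of 59.8-fold with its summit 1.40 kb upstream. The pair agree on height (60.4 ± 0.822, SD, n = 2) and on summit within 30 bp, so in both replicates the high point is upstream of the annotated start rather than on it. The series-wide summit, read as an offset from the start of the merged peak, falls 0.888 kb inside the gene, where replicate 1 had no peak. The merged peak spans 4 peaks of replicate 1, and its offset may not count from its own start. Whether the lists differ on this point can therefore not be told. By replicate summits, the peaks at the start were those of replicate 1 alone, with 10-fold as the highest of 3. That is below the highest intragenic peak of 28.0-fold and 27.9-fold (28.0 ± 0.0537, SD, n = 2), which lay 38.5 kb into the gene.

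Jph2 was also dense in peaks for its length. It held 12 series-wide intragenic peaks, or 19.4 per 100 kb, the 10th highest density among 6007 models of at least 40 kb. Replicate densities were 32.4 per 100 kb in both, the 17th and 23rd highest. Besides the peak at 38.5 kb, those at 43.8 kb (22.2 ± 2.55-fold, SD, n = 2) and 52.8 kb (22.2 ± 1.76-fold, SD, n = 2) were the highest. The long noncoding RNA model Gm35750 lies inside Jph2 and holds 3 of its peaks. Jph1 (chromosome 1, 16942104 to 17097922, strand not given here), the junctophilin known for skeletal muscle, was sparse instead. It had 3 series-wide peaks, all intragenic, or 1.93 per 100 kb, and the highest had 20.5-fold and 30.1-fold (25.3 ± 6.82, SD, n = 2). At its upper end the replicates had 8.50-fold and 6.21-fold (7.35 ± 1.62, SD, n = 2), in peaks that overlap the noncoding model Gm46085 or lie beside it, and the series-wide list had none.

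The kinase gene Camk2d (chromosome 3, 126595487 to 126846326, plus strand) had a start peak of 27.0-fold and 23.9-fold (25.5 ± 2.17, SD, n = 2). Its summits lay 603 and 618 bases upstream of the annotated start, outside the promoter window. The highest intragenic peak, 151.1 kb from the 5′ end, had 36.0-fold and 35-fold (35.5 ± 0.696, SD, n = 2). Further intragenic peaks, at 128.3 kb (34.0-fold and 20.8-fold) and 184.8 kb (32.5-fold and 28.8-fold), had a wider spread, and the first of them was above the start peak in replicate 1 only. No peak of Camk2d lay in its flanks in the 3 lists.

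**Figure D3:**
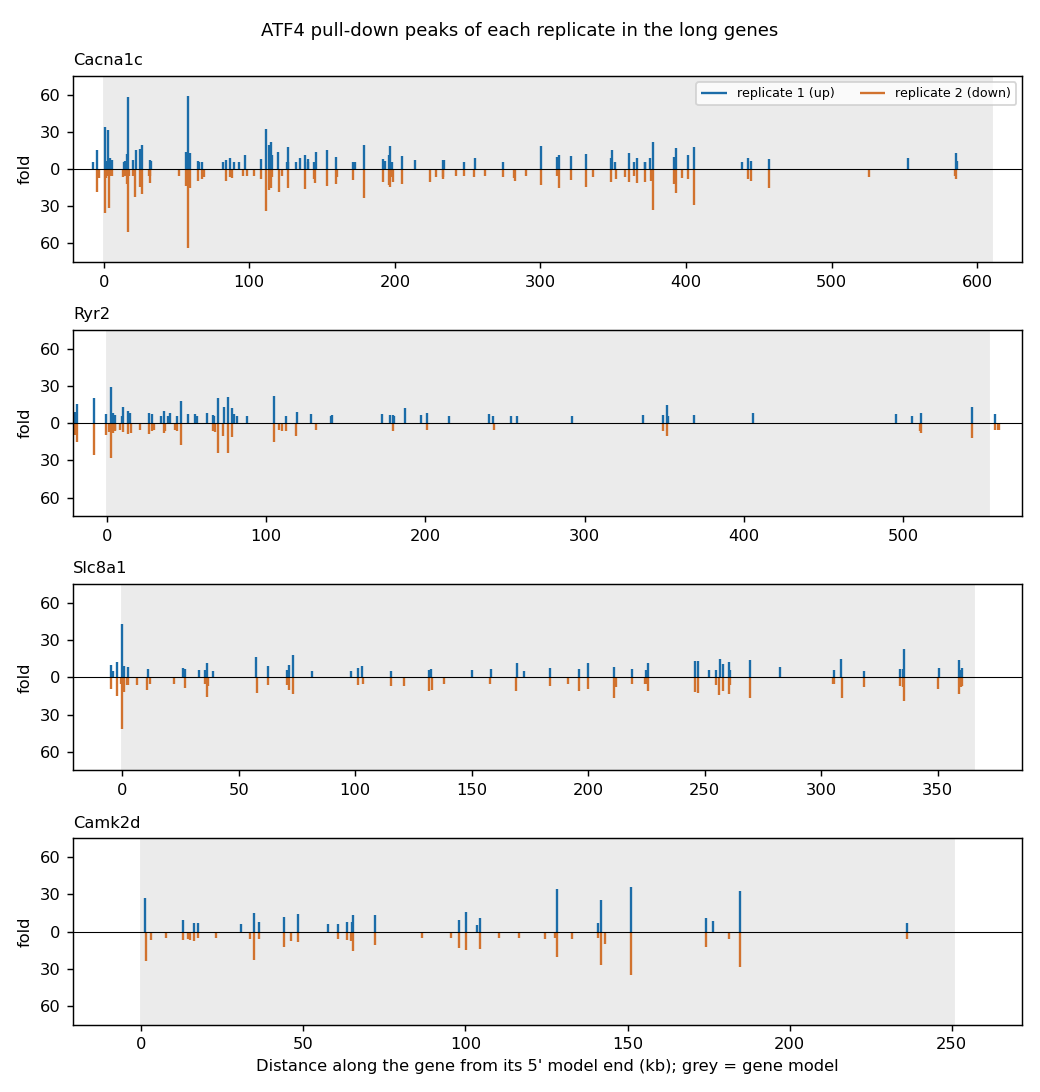
Peaks of replicate 1 (bars up) and replicate 2 (bars down) along Cacna1c, Ryr2, Slc8a1 and Camk2d, placed by peak midpoint; the horizontal axis gives distance in kb from the 5′ end of the model, the vertical axis gives fold, and grey marks the model. Ryr2 bars crowd near the start, the highest Cacna1c bars (59.0 and 63.4) stand 57.7 kb inside, and the highest Slc8a1 bars (43.0 and 41.2) stand at the start.

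Length alone gives a long gene more peaks, so intragenic peaks were also counted per 100 kb of model. Cacna1c had 41, the 4th highest count of all protein-coding models, and 6.72 per 100 kb. Camk2d had 16 and 6.38 per 100 kb, Slc8a1 had 18 and 4.93, and Ryr2 had 16 and 2.89. The median over 2429 models of at least 100 kb was 1.15, the upper quartile 3.16 and the 90th percentile 5.45. Cacna1c and Camk2d were thus above the 90th percentile, Slc8a1 above the upper quartile, and Ryr2 and Jph1 between the median and the upper quartile in the series-wide list. In the replicate lists Slc8a1 was above the 90th percentile too, with 14.0 per 100 kb against 10.2 in replicate 1 and 14.5 against 11.3 in replicate 2. Ryr2 stood just above it in replicate 1 (10.3) and above the upper quartile in replicate 2 (7.04 against 6.84). The order of Ryr2 and Slc8a1 against other long models thus depended on the list. The Cacna1c count was next to those of Tns1 (42 peaks in 214.3 kb) and Msi2 (41 peaks in 378.9 kb), the genes nearest it in number. Slc8a1 stood between Rbms3 and Trak1, each with 18, and Camk2d between Asap1 and Col4a2, each with 16; these are ties.

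**Figure D4:**
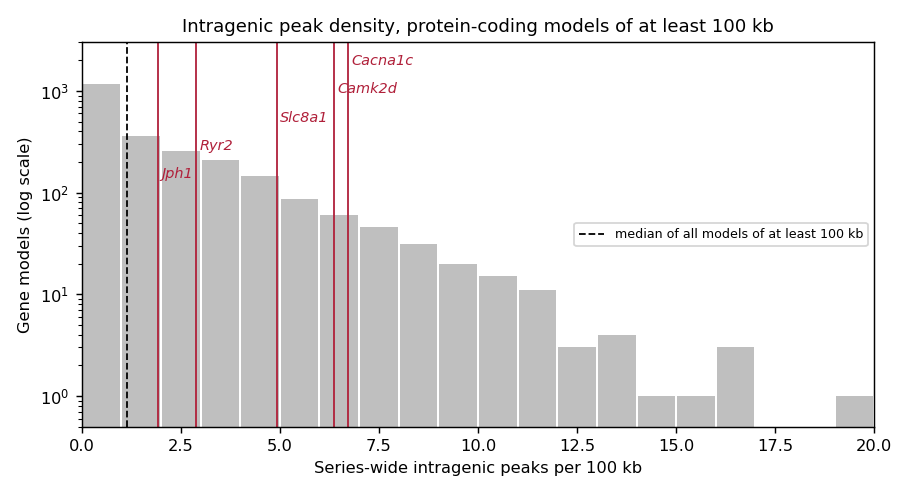
Number of protein-coding models of at least 100 kb (vertical axis, log scale) by series-wide intragenic peaks per 100 kb (horizontal axis), with red lines at the 5 long calcium cycling genes and a dashed line at the median of 1.15. Cacna1c (6.72) and Camk2d (6.38) stand furthest right of these genes, and Jph1 (1.93) nearest the median.

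The position of intragenic peaks differed among the other long genes. Cacna1c held 18, 8, 14 and 1 series-wide peaks in successive stretches of 25% of the model from the 5′ end, Slc8a1 4, 1, 9 and 4, and Camk2d 5, 6, 5 and 0. The last such stretches of Cacna1c and Camk2d were poor in both replicates, with 3 and 3 peaks in Cacna1c and 1 and 1 in Camk2d. Over the 1866 models, that stretch held 24.9% of series-wide intragenic peaks.

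Paralogs of these genes were set beside them. Of 15 paralogs, 2 had a series-wide end peak, which is 13.3%, against 35.9% of all models. They were Casq1, the skeletal muscle calsequestrin, with 8.0-fold and 10.6-fold (9.32 ± 1.87, SD, n = 2), and Camk2g with 9.0-fold and 12.0-fold (10.5 ± 2.1, SD, n = 2). In each replicate list the count was 4 of 15, against 10951 of the 21900 models in replicate 1 and 11382 in replicate 2. The strongest peak with 20 kb reached 30-fold in 2 of 15 paralogs, against 14.1% of all models. In the replicates the counts were 2 and 1, against 11.6% and 12.0%. The median strongest series-wide fold was 18.3 over the paralogs with a series-wide peak, against 42.8 over the 10 genes and 18.2 over all genes with a peak. Family members with high intragenic or flanking peaks were Ryr3 (40.5-fold and 33.7-fold inside the gene) and Camk2b (32.5-fold and 27.0-fold in a flank). Ryr1, the skeletal muscle release channel, had 1 series-wide peak of 8.42-fold in 121.8 kb. Each of Ryr2, Atp2a2, Casq2, Jph1, Jph2, Cacna1c, Slc8a1 and Camk2d had a strongest peak above those of its paralogs in both replicates, but for Ryr2, which was below Ryr3. Jph3 had no series-wide peak, and Atp2a1, Atp2a3, Jph4, Cacna1s, Cacna1d, Cacna1f, Slc8a2, Slc8a3 and Camk2a had none at an end.

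**Figure D5:**
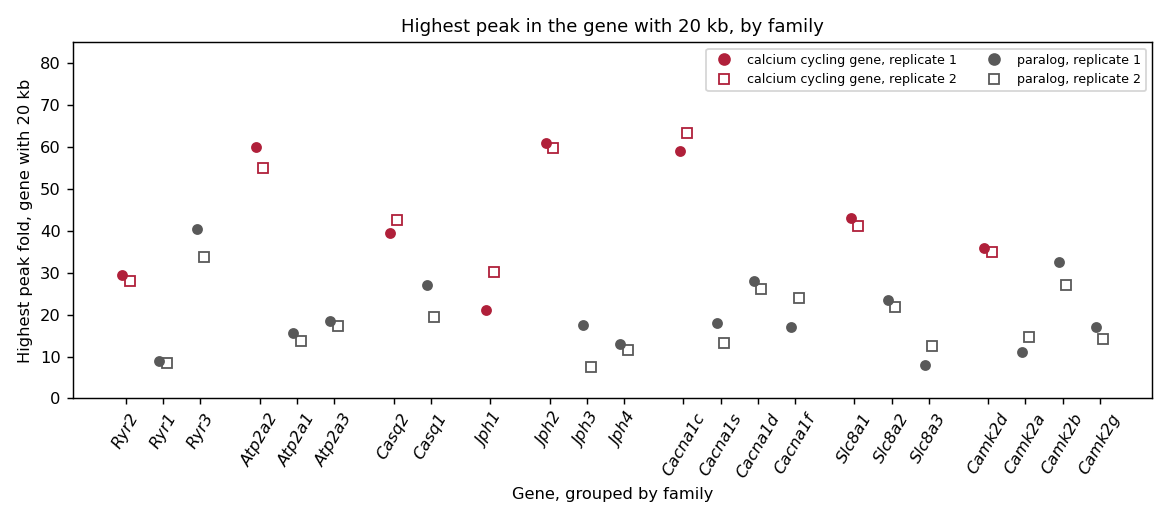
Highest peak fold in the gene with 20 kb on both sides (vertical axis) for each calcium cycling gene (red) and its paralogs (grey), grouped by family, with filled circles for replicate 1 and open squares for replicate 2. The red points stand above the grey points of their family except at Ryr2, where Ryr3 (40.5 and 33.7) is higher.

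A wider list of 40 calcium handling genes gave 28 (70.0%) with a series-wide end peak, against 35.9% of all models. In the replicates the counts were 31 and 32 of 40, against 10951 and 11382 of the 21900 models. The strongest peak reached 30-fold in 12 of 40, against 14.1% of all models, and its median was 22.3. In the replicates 11 and 9 of 40 reached it, against 11.6% and 12.0%. The highest end peaks were those of Popdc2, a cyclic AMP binding membrane protein (53.5-fold and 55.9-fold, 54.7 ± 1.66, SD, n = 2), and Trdn, the triadin that anchors Casq2 to Ryr2 (35.5-fold and 28.4-fold, 31.9 ± 5.04, SD, n = 2). Rrad, a small GTPase that restrains the L-type channel, had 29.5-fold and 31.5-fold (30.5 ± 1.39, SD, n = 2), and Cacnb2, the channel's β subunit, had 29.5-fold and 31.0-fold (30.3 ± 1.08, SD, n = 2). The end peak of Calm2, a calmodulin gene, had a series-wide fold of 47.9 and lies in a chromosome end that the replicate lists lack. High intragenic peaks stood in Stim1, the calcium sensor of the store (50.5 ± 1.36-fold, SD, n = 2), in Cacnb2 (48.7 ± 3.16-fold, SD, n = 2) and in Bin1, a membrane-shaping protein of the T-tubule (45.7 ± 3.76-fold, SD, n = 2). Bin1 and the T-type channel genes Cacna1g and Cacna1h had no series-wide peak at an end.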

How the data were processed

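Heart ventricle chromatin was measured in 2 ATF4 pull-down and 2 input samples, grouped by title and antibody label; input values were not used here. The submitters' processing notes name Bowtie2, MACS2, deepTools and mm10 without saying what each did. The deposited replicate lists give position, summit and a value on the −log10 scale, a p-value or else a q-value (not settled); the deposited series-wide list gives a fold ratio. Depth is unknown. Identical peaks (17420 and 21053, with 0 and 6 exceptions) tied each −log10 value to a fold. Replicate folds were read from that relation; the 4 and 5 lowest levels continued its steps, and 2 and 9 others were interpolated. All value columns were mapped (0 left out).

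Peaks were placed by midpoint on RefSeq models of GRCm38.p6, whose strand came from the promoter table. A peak was at an end or start within 1 kb, intragenic farther inside, and flanking within 20 kb outside. Genes are counted beside all protein-coding models; no test was run, since 1 group alone has values. Members and lists were chosen with earlier results of these data known. Named genes are the 10, their paralogs, overlapping models, and of the other calcium genes the up to 5 highest at an end, the 3 highest inside and the first 3 alphabetically with none at an end, plus the genes next to the 3 members with most intragenic peaks. Alternatives were other windows, flanks, overlaps, fold limits and each replicate alone. Placement was checked on simulated data over 200 genes (799 of 799 peaks recovered). Python 3.11.15, NumPy 2.4.6, pandas 2.3.3 and Matplotlib 3.10.9 were used.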

Additional observations from a re-analysis of the deposited data

How the results depend on the processing

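Of 31 recomputed values, 25 stayed within 1.5 times of the value given, all as counts of genes or peaks. Genes with an end peak numbered 5 of 10 with the 50% of peaks of highest fold (16.9% of all models) and 4 of 10 with the highest 20% (5.62%), against 8 with all peaks. With a window of 5 kb, an end or start was the stronger place in 4 of 7 genes, against 2 at 1 kb. An end peak was then found at 4 of 15 paralogs (48.1% of all models), against 2 at 1 kb (35.9%). Leaving out either replicate gave 9 to 10 genes with an end peak, 10 to 10 with a peak within 20 kb, 2 to 3 with the stronger start, 4 to 4 of the 5 long genes above the upper quartile of density, 4 to 4 paralogs and 31 to 32 other calcium genes. A reciprocal overlap of 50% kept 127 of 146 peaks in both replicates. Placing replicate peaks by their summits, chosen after seeing the data, gave 9 of 10 genes in each replicate. No paired analysis was possible because the input samples, which carry the same numbers, have no values here. Depth is unknown, so a place with no peak may hold signal below the level at which peaks were called.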
